A study of Homo sapiens with 6 samples.

Results

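The 10 genes described here encode the oxygen-regulated HIF transcription factors, the enzymes and the ubiquitin ligase subunit that control them, and transcripts widely used as markers of hypoxia. They are HIF1A and EPAS1 (factors), EGLN1, EGLN3 and VHL (control), and CA9, CA12, NDRG1, BNIP3 and ADM (markers). They were chosen by gene symbol, and each of the 10 had 1 row in a table of 58302 genes. All 10 passed the filter on low counts and were among the 15945 genes tested. All samples were PC-3, a human cell line established from prostate cancer that had spread to bone. By the labels, 3 libraries came from PC-3 carrying a BHLHE22-overexpression lentivirus (BHLHE22 is a helix-loop-helix transcription factor), and 3 from PC-3 carrying the blank-vector virus. The sources used here do not give the promoter of the construct or say whether the cells were a pool or a clone. The same growth conditions are stated for all cells, and the labels name no hypoxic treatment.

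In cells with enough oxygen, prolyl hydroxylases of the EGLN family modify the alpha subunits of HIF, which are encoded by HIF1A and EPAS1. The VHL protein then binds the modified subunit and, within a ubiquitin ligase, marks it for degradation. In hypoxia the subunits persist, pair with ARNT and activate genes whose regulatory regions hold the core motif ACGTG or GCGTG, among them EGLN3, CA9, NDRG1, BNIP3 and ADM. This control acts mainly on the protein, which was not measured here. The comparison asks how the mRNAs of this system differ when PC-3 cells overexpress BHLHE22.

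The motif ACGTG was looked for on both strands of the 300 bases around the RefSeq start (250 before and 50 after it, GRCh38.p14) of 8 of the 10 genes; VHL and NDRG1 were not searched. It was found for EGLN1, CA9 and BNIP3. The 3 sites are shown because they place the core motif of this system at genes whose mRNA is described below. Each line gives 25 bases read 5′ to 3′ along the strand that reads ACGTG, with the motif in capitals.
EGLN1: gccgtggtgtACGTGcagagcgcgc
CA9: tacgggctgtACGTGcattggaaac
BNIP3: cacgcgccgcACGTGccacacgcac
The EGLN1 site (chr1:231422286-231422310, minus strand) has the centre of its core 11 bases before the RefSeq start. That of the CA9 site (chr9:35673900-35673924, minus strand) lies 16 bases before the RefSeq start. The gene positions given below begin further upstream for both genes, so they enclose both sites. These 2 sites share an unbroken run of 10 bases, tgtACGTGca. The BNIP3 site (chr10:131982042-131982066, minus strand) lies 131 bases before the start and also reads ACGTG on the other strand. The variant GCGTG was found for 5 of the 8 genes: HIF1A, EPAS1, CA12, BNIP3 and ADM. EGLN3 had neither motif in its window. Of 27305 promoters of the same length, 21.6% hold ACGTG, 36.3% hold GCGTG and 48.4% hold at least 1 of them, so matches are common; a match is a description of the sequence, not a site of binding.

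Total counts were 12186723 to 15949537 per library. BHLHE22 had 1 read in each vector library and 98, 92 and 133 reads in the BHLHE22 libraries. The epithelial keratin genes KRT8, KRT18 and KRT19 were expressed in both groups, and KLK3, an androgen-dependent gene that PC-3 cells are known to lack, had 0 reads. Of 5 blood cell markers, 4 had no read in the vector libraries and 3 none in the BHLHE22 libraries. The summed level of 5 endothelial markers was 97.1 to 105 CPM (counts scaled to library size by TMM) in vector and 64.4 to 76.3 CPM in BHLHE22 libraries. However, CDH5 and VWF, which define that cell type, had at most 0.0948 CPM on average. Most of the sum came from PECAM1, which fell from 55.7 ± 7.8 to 23.1 ± 3.6 CPM (SD, n = 3), and from KDR. KDR, at 44.6 ± 3.8 against 48.4 ± 3.3 CPM, was not called. The sum of 6 fibroblast markers was 72.5 to 83.8 CPM in vector and 60.1 to 61.7 CPM in BHLHE22 libraries, with COL1A1 lower, LUM higher and DCN at 0 in the vector libraries. Of 6 prostate epithelial markers, whose sums overlapped (1167 to 1302 and 1117 to 1323 CPM), KRT8 and KRT18 fell, EPCAM rose by 1.17 on the log2 scale and KRT5 was at 0. Mitochondrial reads ranged from 7.53% to 8.32% in vector libraries and from 4.95% to 5.21% in BHLHE22 libraries. The part of these differences in the results below was not tested. Whether replicate libraries stem from separate cultures is not stated, so the p-values rest on a spread among libraries that may be only technical. In bulk RNA, fewer cells that express a gene and less RNA per cell cannot be told apart.

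HIF1A and VHL fell in BHLHE22 cells and EGLN1 rose, while none of the 5 hypoxia markers passed the test. Of the 10 genes, 1 was called higher and 2 lower by edgeR's quasi-likelihood test at an adjusted p under 0.05. In the same test 49.4% of all tested genes were called, 25.1% higher and 24.3% lower. The 3 calls among 10 genes (30.0%) lie below that background share. All 3 also had an adjusted p under 0.01, as did 31.1% of all tested genes. The median log2 fold change of the 10 genes was 0.13, against 0.00 for all tested genes. The groups did not overlap for 4 of the 10 genes (HIF1A, EGLN1, EGLN3 and VHL), against 60.5% of all tested genes. Of these 4, 1 was higher and 3 were lower, where the shares of all tested genes were 30.6% and 29.9%. Without vector replicate 2, 3 genes were called higher. Leaving out vector replicate 1, vector replicate 3 or BHLHE22 replicate 3 gave 2 called higher, and in the fit that omits vector replicate 3 the number called lower was 3. With library sizes left unscaled, which shifts the median of all genes by 0.15, 4 were called higher and 2 lower.

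**Figure D1:**
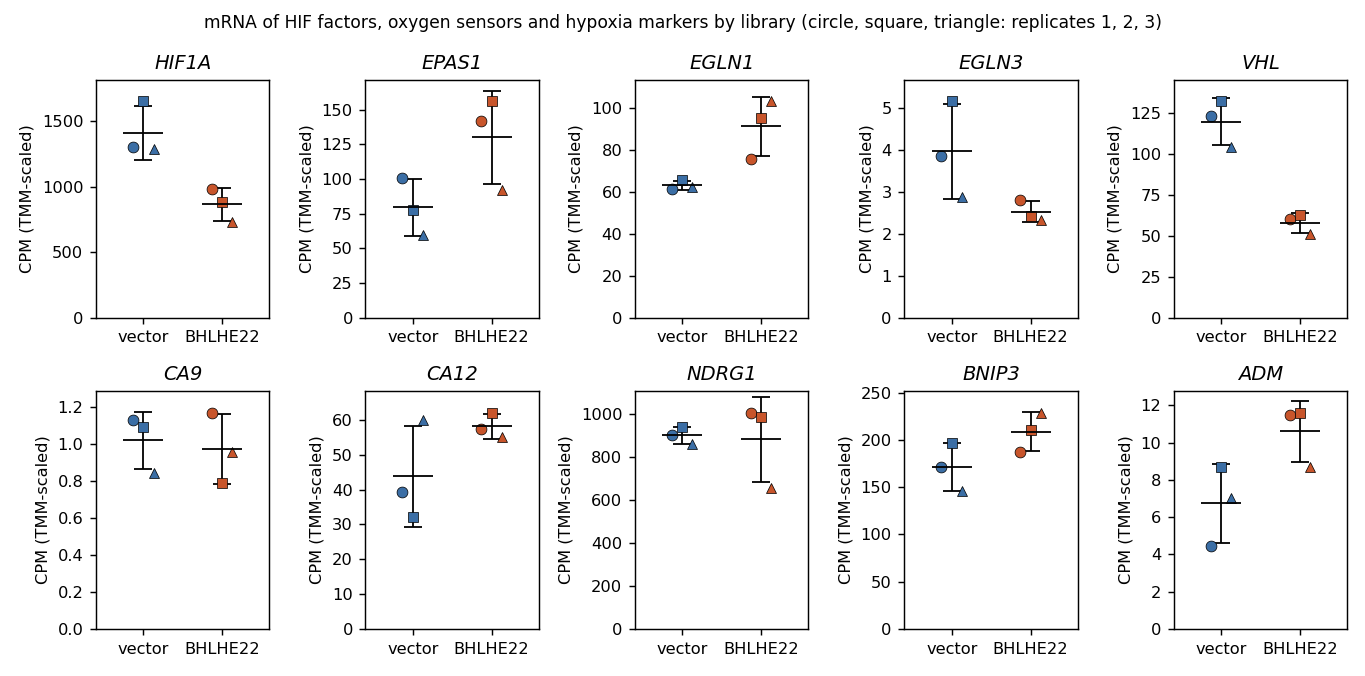
CPM of each of the 10 genes (vertical axes, linear from 0) in the 3 vector (blue) and 3 BHLHE22 (red) libraries, with the mean and SD as bars. The red points lie wholly below the blue points for HIF1A, VHL and EGLN3 and wholly above them for EGLN1, and the groups overlap for the other genes.

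HIF1A (ENSG00000100644, chr14:61695513-61748259, GRCh38), the gene of the best known HIF alpha subunit, was the most abundant of the 10 mRNAs per kilobase of exon. Its level was 1305, 1653 and 1286 CPM in vector replicates 1 to 3, and 983, 882 and 732 CPM in BHLHE22 replicates 1 to 3. Every BHLHE22 library was below every vector library. HIF1A fell 1.63-fold, from 1415 ± 206 to 866 ± 126 CPM (SD, n = 3; log2 fold change -0.71 with SE 0.14; edgeR adjusted p = 0.00446). Per kilobase it was still the highest of the 10 in the BHLHE22 libraries, at 142 to 191 CPM against 66.7 to 102 for NDRG1, the next. Overlapping genes add little doubt to the value: HIF1A-AS2 and HIF1A-AS1, on the opposite strand, and AL137129.1, on the same strand, held 0.353%, 0.0526% and 0.248% as many reads as HIF1A.

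EPAS1 (ENSG00000116016, chr2:46293667-46386703), whose product is the other major HIF alpha subunit, had levels in the opposite order, but the difference did not pass the test. It measured 101, 77.9 and 59.9 CPM in the vector libraries and 142, 156 and 91.9 CPM in the BHLHE22 libraries. BHLHE22 replicate 3 lay below vector replicate 1, so the groups overlapped. The fold was 1.64 (95% interval 1.06 to 2.52, not adjusted for the number of genes; log2 fold change 0.71 with SE 0.26; edgeR adjusted p = 0.0604). Without vector replicate 1 the log2 fold change was 0.92 (adjusted p = 0.0329), and without BHLHE22 replicate 3 it was also 0.92 (adjusted p = 0.0190); the lowest value with a library left out was 0.55. Leaving out any other library gave no call (edgeR adjusted p = 0.132 to 0.157). DESeq2 called EPAS1 (adjusted p = 0.0107), as did edgeR with unscaled library sizes (adjusted p = 0.0291). It was not called by limma-voom (adjusted p = 0.0667) or by edgeR without the filter on low counts (adjusted p = 0.164). In 8 of the 13 alternatives run for it, EPAS1 was not called.

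The ratio of the 2 factors was lower in every BHLHE22 library. Per kilobase of exon, HIF1A was 18.4, 30.1 and 30.4 times as abundant as EPAS1 in the vector libraries and 9.80, 8.0 and 11.3 times in the BHLHE22 libraries. The groups did not overlap. EPAS1 made up 3.85% of the sum of both in vector and 9.5% in BHLHE22 cells. The log2 ratio, computed from the deposited FPKM (fragments per kilobase of gene length, scaled to library size) with a pseudocount of 0.1, differed by -1.41 (exact permutation test, 2-sided, p = 0.10, the smallest that 3 against 3 libraries can give). Over the 3 ratios of related genes compared here, the adjusted p was 0.15.

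The genes closest to each factor in pattern were searched among 9684 other protein-coding genes with a mean of at least 10 CPM. The measure was the root mean square difference of log2 CPM, centred on each gene's mean over the 6 libraries. For HIF1A they were ZBTB34 (0.0458), MBNL2 (0.0488) and GPR153 (0.0511), with log2 fold changes of -0.78, -0.76 and -0.67. For EPAS1 they were MAIP1 (0.128), TUFT1 (0.133) and STAMBP (0.139), with log2 fold changes of 0.49, 0.64 and 0.64. All 3 genes closest to HIF1A were called, and of those closest to EPAS1 only TUFT1 was (edgeR adjusted p = 0.0295). Because the choice used the libraries of both groups, fold changes like those of HIF1A and EPAS1 follow from it. The distances for EPAS1 were larger, and none of these 6 genes is on the lists of the pathway used below.

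**Figure D2:**
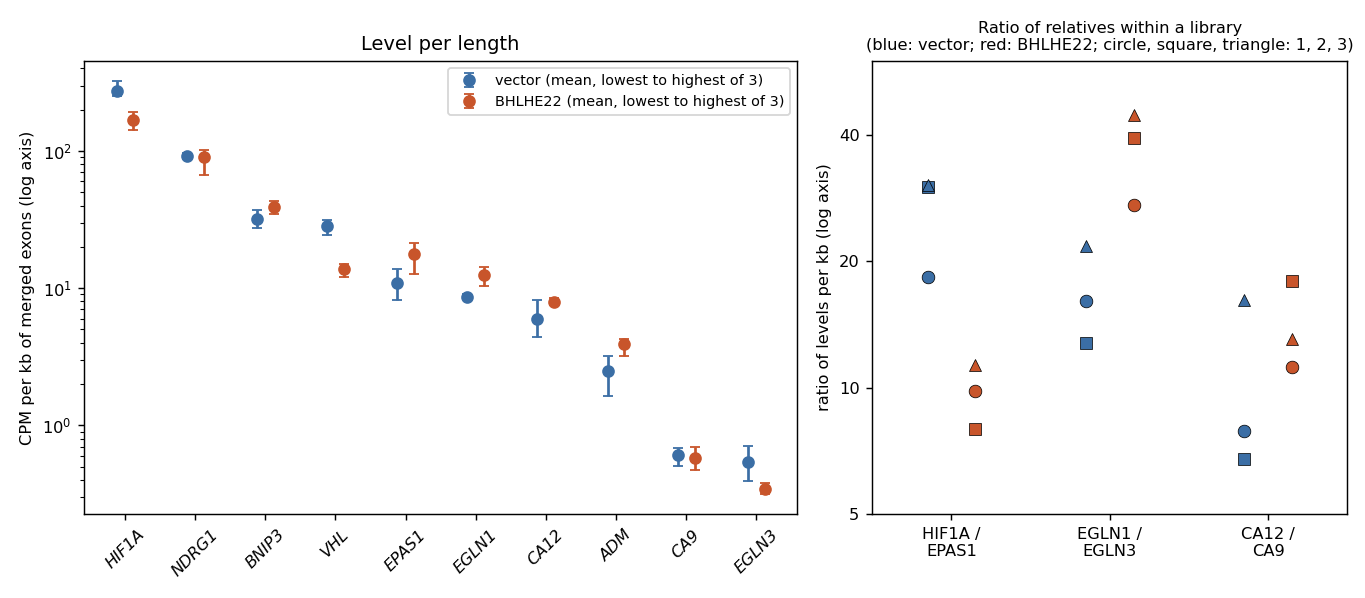
Left: mean CPM per kilobase of merged exons (log axis) of the 10 genes in vector (blue) and BHLHE22 (red) cells, with bars from the lowest to the highest of 3 libraries. Right: ratio of such levels between related genes in each library (log axis); the HIF1A to EPAS1 ratios are 18.4 to 30.4 in vector and 8.0 to 11.3 in BHLHE22 libraries, while those of CA12 to CA9 overlap.

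VHL (ENSG00000134086, chr3:10141008-10152220), the subunit that recognises hydroxylated HIF, had the largest estimated change of the 10 genes. Its level was 123, 132 and 104 CPM in the vector libraries and 60.1, 62.8 and 51.1 CPM in the BHLHE22 libraries. All 3 BHLHE22 libraries were well below the lowest vector library. VHL fell 2.07-fold, from 119.7 ± 14.5 to 58.0 ± 6.1 CPM (SD, n = 3; log2 fold change -1.05 with SE 0.12; edgeR adjusted p = 0.000525). The size of this change exceeded that of 83.9% of all tested genes. For the other called genes, HIF1A and EGLN1, this share was 69.2% and 57.2%. In all 13 alternatives run for it, VHL stayed called, with log2 fold changes of -1.13 to -0.90.

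EGLN1 (ENSG00000135766, chr1:231363751-231425044), the gene of the main HIF prolyl hydroxylase, rose. It measured 61.3, 65.6 and 62.0 CPM in the vector libraries and 75.3, 94.9 and 103 CPM in the BHLHE22 libraries. The vector libraries were close together, the BHLHE22 libraries spread more widely, and the groups did not overlap. The rise was 1.45-fold, from 63.0 ± 2.3 to 91.0 ± 14.2 CPM (SD, n = 3; log2 fold change 0.53 with SE 0.12; edgeR adjusted p = 0.00857). Of the 3 genes whose ACGTG sites are shown above, EGLN1 was called and CA9 and BNIP3 were not; the difference between them was not tested.

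EGLN3 (ENSG00000129521, chr14:33924231-34462774), a hydroxylase gene that HIF itself is known to activate, was rare. Its counts were 51, 76 and 41 reads in the vector libraries and 36, 34 and 39 in the BHLHE22 libraries. In CPM these are 3.86, 5.17 and 2.89 against 2.81, 2.44 and 2.34, so the groups did not overlap, though the margin between vector replicate 3 and BHLHE22 replicate 1 was narrow. EGLN3 was not called (log2 fold change -0.65, SE 0.24, 95% interval of the fold 0.429 to 0.941, edgeR adjusted p = 0.0569). Leaving out vector replicate 3 gave a call (log2 fold change -0.83, adjusted p = 0.0201), and leaving out vector replicate 2 gave -0.41 (adjusted p = 0.185). The annotated span of EGLN3 encloses SPTSSA, which had 10992 reads, but the annotated exons of the genes share 0 bases.

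EGLN2 is the remaining member of the hydroxylase family. EGLN1 made up 69.8% to 74.1% of the summed level per kilobase of the 3 genes in vector libraries and 75.6% to 82.6% in BHLHE22 libraries. EGLN2 had 19.5 ± 2.2 against 19.1 ± 1.4 CPM (SD, n = 3; log2 fold change -0.04, SE 0.13, not called). EGLN3 made up 3.40% to 5.43% and 1.86% to 2.78% of the sum. These shares use the length of merged exons. The length behind the deposited FPKM is 2.76 times that length for EGLN2, 1.31 times for EGLN3 and 1.05 times for EGLN1. The FPKM would therefore give EGLN1 a larger share. The ratio of EGLN1 to EGLN3 was 12.8 to 21.8 in vector and 27.2 to 44.5 in BHLHE22 libraries. The log2 ratio from the deposited FPKM was higher by 1.02 (exact permutation test, 2-sided, p = 0.10, adjusted p = 0.15 over the 3 ratios).

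Of the hypoxia markers CA9, CA12, NDRG1, BNIP3 and ADM, 0 of 5 were called by edgeR, DESeq2 or limma-voom, and 1 (ADM) had an unadjusted p under 0.05 in edgeR; edgeR called 49.4% of all tested genes. The point estimates were positive for 3 and negative for CA9 and NDRG1, both of which turned positive with unscaled library sizes. The intervals below give the range of folds these libraries allow.

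NDRG1 (ENSG00000104419, chr8:133237171-133302022), a stress-responsive gene linked to differentiation and metastasis suppression, was the most abundant marker. Its level was 901, 942 and 861 CPM in the vector libraries and 1007, 986 and 656 CPM in the BHLHE22 libraries. The vector values fell inside the BHLHE22 range, which was wide because replicate 3 lay far below the other two. The estimated fold was 0.979, with a 95% interval of 0.756 to 1.27 (edgeR adjusted p = 0.891). The sign of the log2 fold change, -0.03, was positive with unscaled library sizes (0.12) or without BHLHE22 replicate 3 (0.15), and it was 0.00 without vector replicate 2.

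BNIP3 (ENSG00000176171, chr10:131966455-131982013), which encodes a mitochondrial protein that promotes mitophagy, measured 171, 197 and 146 CPM in the vector libraries and 187, 211 and 229 CPM in the BHLHE22 libraries. Only vector replicate 2 reached into the BHLHE22 range. The fold was 1.22 with a 95% interval of 0.993 to 1.49 (log2 fold change 0.28 with SE 0.13; edgeR adjusted p = 0.0986). Without vector replicate 2 the adjusted p was 0.0333, and with unscaled library sizes 0.0157. The transcribed pseudogene BNIP3P1 had 3509 reads beside 16379 of BNIP3, and reads could have been split between them. With its reads added to BNIP3 the log2 fold change was again 0.28 (adjusted p = 0.0812).

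ADM (ENSG00000148926, chr11:10304680-10307397) encodes adrenomedullin, a vasodilator peptide. Its counts were low, 59, 128 and 100 reads in the vector libraries and 147, 161 and 145 in the BHLHE22 libraries. After scaling these were 4.46, 8.70 and 7.04 against 11.5, 11.6 and 8.70 CPM, so BHLHE22 replicate 3 and vector replicate 2 met. The fold was 1.56 with a 95% interval of 1.05 to 2.32, not adjusted for the number of genes (log2 fold change 0.64 with SE 0.25; edgeR adjusted p = 0.0607). Without vector replicate 2 the log2 fold change was 0.87 (adjusted p = 0.0284). Over all 6 omissions of a library it ranged from 0.43 to 0.87. ADM was also called with unscaled library sizes (adjusted p = 0.0254) and without the filter on low counts (0.0427).

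The carbonic anhydrases CA9 and CA12 are membrane enzymes that hydrate carbon dioxide outside the cell and help tumour cells regulate pH. CA9 (ENSG00000107159, chr9:35673856-35681159), often taken as the most specific transcript marker of hypoxia, was nearly absent: 15, 16 and 12 reads in the vector libraries and 15, 11 and 16 in the BHLHE22 libraries. The groups overlapped, and the fold was 0.950 with a 95% interval of 0.608 to 1.48 (edgeR adjusted p = 0.852). Its log2 fold change, -0.07, became 0.07 with unscaled library sizes, 0.01 without vector replicate 1 and 0.06 without BHLHE22 replicate 2. CA9 shares 643 exon bases with ARHGEF39 on the opposite strand, which had 279 reads against 85 of CA9 over the 6 libraries. Because the sources do not say that counting used strand, reads of the 2 genes cannot be told apart there.

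CA12 (ENSG00000074410, chr15:63321378-63382161) measured 39.2, 32.2 and 60.1 CPM in the vector libraries and 57.5, 62.1 and 55.1 CPM in the BHLHE22 libraries. Vector replicate 3 lay within the BHLHE22 range and far above the other vector libraries. The fold was 1.33 with a 95% interval of 0.931 to 1.90 (log2 fold change 0.41 with SE 0.22; edgeR adjusted p = 0.158). Without vector replicate 3 the log2 fold change was 0.71 and CA12 was called (adjusted p = 0.00442), while without vector replicate 2 it was 0.23 (adjusted p = 0.349). CA12 exceeded CA9 per kilobase 6.77 to 16.2 times in vector and 11.2 to 18.0 times in BHLHE22 libraries, and the log2 ratio differed by 0.53 (exact permutation test, 2-sided, p = 0.30, adjusted p = 0.30 over the 3 ratios).

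**Figure D3:**
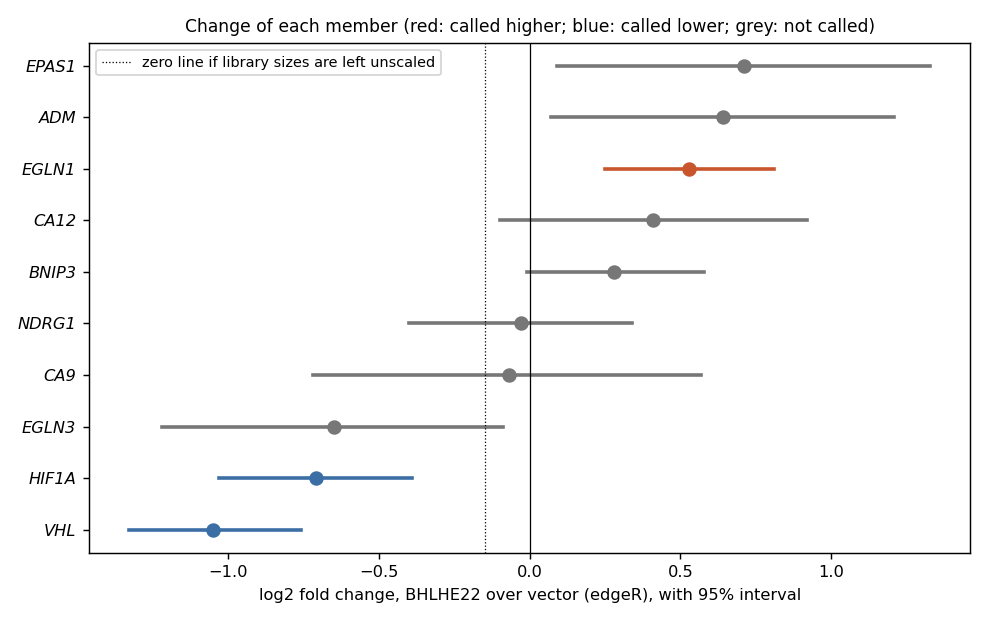
Log2 fold change (BHLHE22 over vector, edgeR) of each gene with its 95% interval, not adjusted for the number of genes. VHL and HIF1A (blue), called lower, lie below 0 and EGLN1 (red) above it; the grey genes were not called, and the dotted line marks where 0 would lie with unscaled library sizes.

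Compared per length, the 10 mRNAs spanned a wide range. The deposited FPKM were not used for this order, because the gene length behind them is the sum of all distinct annotated exons, which counts overlapping exons repeatedly and is 3.30 times the merged exon length for ADM, 1.89 times for HIF1A and 1.05 times for EGLN1. With merged exons, the vector order was HIF1A (275 ± 40 CPM per kilobase), NDRG1 (91.8 ± 4.2), BNIP3, VHL, EPAS1, EGLN1, CA12, ADM, CA9 (0.612 ± 0.093) and EGLN3 (0.540 ± 0.156; SD, n = 3). The ranges of the neighbours BNIP3 and VHL, EPAS1 and EGLN1, and CA9 and EGLN3 overlapped. In BHLHE22 cells VHL stood below EPAS1, and EPAS1, VHL and EGLN1 (17.8 ± 4.7, 13.8 ± 1.5 and 12.5 ± 2.0) could not be ordered beyond their spread. The deposited FPKM would place EGLN1 above EPAS1 in both groups.

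Among the partners and other machinery of the system, 5 of 19 tested genes rose and 6 fell. The share called was 57.9%, against 49.4% of all tested genes, and the median log2 fold change was -0.15, against 0.00. Of the ubiquitin ligase that contains VHL, 2 further subunit genes rose: ELOC, which encodes elongin C, rose from 61.0 ± 1.7 to 89.2 ± 2.5 CPM (edgeR adjusted p = 0.000999), and RBX1 rose by 0.56 on the log2 scale, while CUL2 (0.20) and ELOB (-0.12) were not called. HSP90AB1 and HSP90AA1, the cytosolic HSP90 chaperones that bind HIF alpha subunits, rose by 0.82 and 0.68, and OS9, whose product binds HIF alpha and EGLN proteins, rose by 0.56. ARNT, the partner of the alpha subunits, had 79.3 ± 8.6 against 66.1 ± 2.3 CPM (log2 fold change -0.26, edgeR adjusted p = 0.0603). The genes that fell were ARNT2 (-1.19), CITED4 (-0.94), SIAH1 (-0.83), SIAH2 (-0.77), EP300 (-0.67) and CREBBP (-0.41). The last pair encode coactivators of HIF, and SIAH1 and SIAH2 encode ubiquitin ligases that act on EGLN proteins. HIF1AN, the asparaginyl hydroxylase that blocks coactivator binding, was not called (-0.15). RBX1, CUL2, ELOB, ARNT, HIF1AN and the 6 genes that fell were named after their values were seen.

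HIF target genes outside glycolysis moved in both directions. Of 46 tested, 11 rose, 9 fell and 26 did not pass; the share called was 43.5% and the median -0.02. Both are near the values of all tested genes, 49.4% and 0.00, as is the share that rose, 23.9% against 25.1%. Among the genes with the smallest p were PLOD2 and PLOD1, which encode lysyl hydroxylases of collagen (log2 fold changes 1.12 and 0.62), and CCNG2, an atypical cyclin gene (-1.38). PLOD2 rose from 85.3 ± 8.8 to 186 ± 20 CPM and CCNG2 fell from 68.8 ± 7.6 to 26.5 ± 4.2 CPM (SD, n = 3). VEGFA, named after its values were seen as the best known target, had 187 ± 95 against 200.4 ± 6.6 CPM and was not called. Without BHLHE22 replicate 2, 5 genes of this list fell.

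In the list of glucose uptake, glycolysis and lactate genes, 17 of 24 tested rose (70.8%, against 25.1% of all genes called higher) and 1, PKM, fell, with a median of 0.42. GBE1, the glycogen branching enzyme gene, rose from 46.2 ± 5.1 to 134 ± 2.94 CPM, and PGAM1, SLC16A3 and GPI rose by 0.85, 0.79 and 0.97 on the log2 scale. PKM was not called when any of the 3 BHLHE22 libraries was left out, or with unscaled library sizes. Whether the glycolysis list and the markers differ was not tested.

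**Figure D4:**
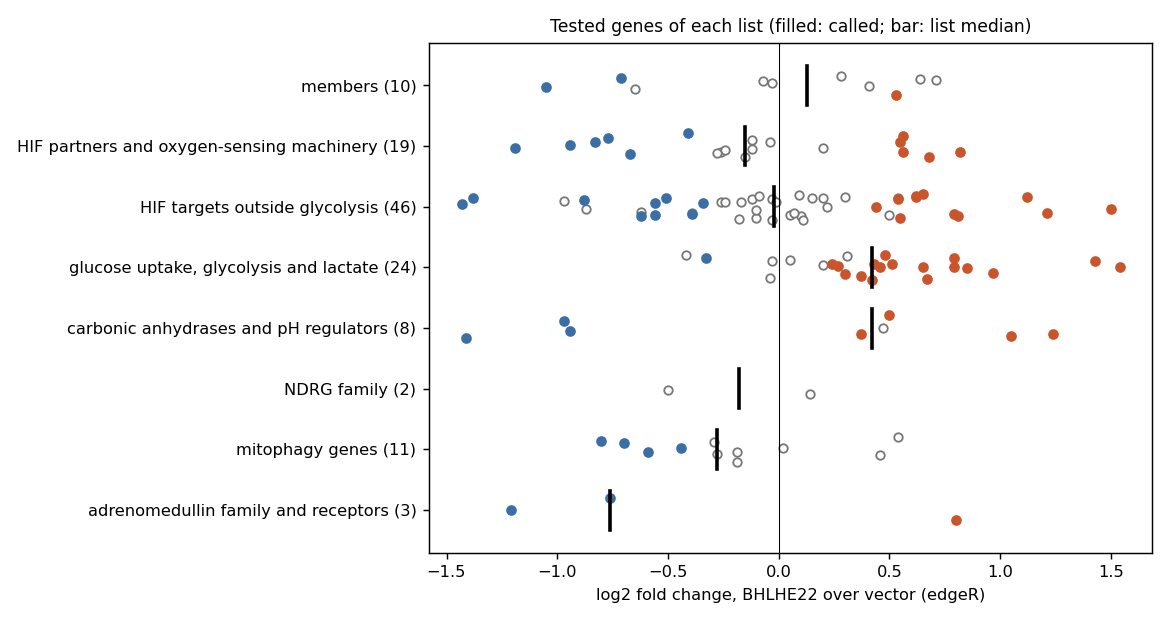
Log2 fold change (horizontal axis, BHLHE22 over vector) of every tested gene in the 10-gene set (labelled members) and in each pathway list, with the number tested in parentheses. Filled points were called (red higher, blue lower), black bars are list medians, and the glycolysis list has 17 red points and 1 blue.

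The remaining lists hold relatives of the markers. In the list of other carbonic anhydrases and pH regulators 8 of 18 genes were tested, 4 rose and 3 fell (median 0.42; 87.5% called, against 49.4% of all tested genes). CA5B, a mitochondrial carbonic anhydrase gene, and CA11 fell by 1.41 and 0.94 on the log2 scale. SLC4A7, a bicarbonate transporter gene, fell from 704 ± 18 to 360.4 ± 80.0 CPM. Of the NDRG relatives, 0 of 2 tested were called by edgeR, DESeq2 or limma-voom and 0 had an unadjusted p under 0.05; NDRG3 and NDRG4 had log2 fold changes of 0.14 and -0.50, and 1 was called lower without vector replicate 1.

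Among 11 tested mitophagy genes, 4 fell and 0 rose by edgeR, DESeq2 and limma-voom, and 0 had an unadjusted p under 0.05 upward (median -0.28). The share called, 36.4%, was below the 49.4% of all tested genes. All 4 calls were downward, so the same 36.4% lay above the 24.3% of all tested genes called lower. Of all tested genes 25.1% were called higher. PINK1, the kinase that marks damaged mitochondria, fell from 197 ± 16 to 131 ± 3.12 CPM. SQSTM1, BCL2L13 and CALCOCO2, which encode autophagy receptors, fell by 0.80, 0.70 and 0.44 on the log2 scale. The call of CALCOCO2 ended without vector replicate 1 or 2 (adjusted p = 0.0999 and 0.103) or BHLHE22 replicate 1 or 2 (0.0742 and 0.0998, edgeR), and with unscaled library sizes (0.119). BNIP3L, the closest relative of BNIP3, had 112 ± 62 against 163 ± 7.27 CPM and was not called. Without vector replicate 1 or BHLHE22 replicate 1, 1 gene of this list rose.

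Most of the listed relatives and receptors of adrenomedullin, among them CALCRL, RAMP2 and RAMP3, had too few reads to be tested. In this list 3 of 8 genes were tested, and 1 rose and 2 fell. The share called was 100%, against 49.4% of all tested genes. RAMP1, which encodes a receptor accessory protein, fell from 89.1 ± 8.3 to 52.7 ± 3.1 CPM, and ADM2, a related peptide gene, fell by 1.21 on the log2 scale. ACKR3, an atypical receptor gene whose product binds adrenomedullin, rose from 5.04 ± 0.30 to 8.76 ± 1.24 CPM (SD, n = 3). The receptor gene CALCRL did not pass the filter on low counts, at 0.351 ± 0.372 and 0.585 ± 0.173 CPM. The further accessory genes RAMP2 and RAMP3 did not pass it either. RAMP2 had a mean of 0.0227 CPM in vector and 0 CPM in BHLHE22 libraries, and RAMP3 had 0 CPM in both.

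**Figure D5:**
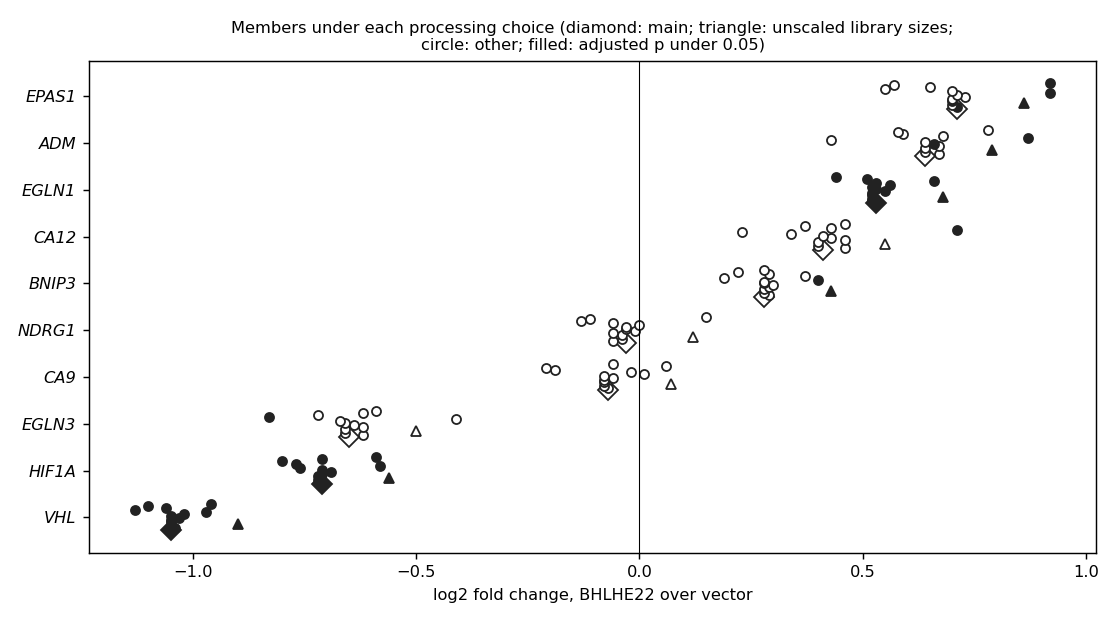
Log2 fold change of each of the 10 genes under each processing choice (diamond, main; triangle, unscaled library sizes; circle, the others), filled where the adjusted p was under 0.05. HIF1A, VHL and EGLN1 are filled throughout, and EPAS1, ADM, BNIP3, CA12 and EGLN3 are filled under some choices.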

How the data were processed

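The deposited table holds whole-number read counts per gene and FPKM, made by the authors. The submitters' processing notes list StringTie 1.3.4b, HISAT2 2.1.0, edgeR and CASAVA 1.8 and the builds GRCh38 and hg38, without roles. The sources used here do not state the counting options or strand. For 92.4% of 15773 genes the length behind the deposited FPKM matched, within 0.1%, the sum of all distinct GENCODE 29 exons; the median ratio to merged exons was 1.46.

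Counts were filtered with filterByExpr, scaled by TMM and tested with edgeR 4.0.16 (quasi-likelihood, robust, R 4.3.3), with group as the only term and 3 libraries per group. Benjamini-Hochberg adjustment covered all 15945 genes. The SE is the log2 fold change divided by the square root of F. A positive value means more RNA in BHLHE22 cells. The alternatives included DESeq2 1.42.0 and limma-voom (limma 3.58.1). CPM per kilobase used merged GENCODE 29 exons. Positions are those of the deposited table. Promoter sequences are from RefSeq.

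The 10 genes, the 7 lists and the tests were chosen with earlier results of these data known. Named genes are the 10, BHLHE22, up to 4 called genes of smallest p per list, and the 3 genes closest in pattern to HIF1A and to EPAS1; some named genes are not reported here. The lists were described by counts and medians, without a set test. All pairs of libraries differed by more than sampling noise (chi-square per degree of freedom at least 11.0). The scripts were tested on simulated data.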

Additional observations from a re-analysis of the deposited data

How the results depend on the processing

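HIF1A, VHL and EGLN1 kept their direction and their call in all 13 alternatives run for each, with log2 fold changes of -0.80 to -0.56, -1.13 to -0.90 and 0.44 to 0.68. The number of the 10 genes called higher, 1 in the main analysis, was 2 with the replicate block, with DESeq2 or without the filter on low counts, and 4 with unscaled library sizes. Leaving out each library gave 1 to 3 called higher and 2 to 3 called lower. The added calls were EPAS1 with the replicate block (adjusted p = 0.00637) or DESeq2, ADM without the filter, and EPAS1, BNIP3 and ADM with unscaled library sizes. Leaving out each library gave log2 fold changes of -0.21 to 0.06 for CA9 and -0.13 to 0.15 for NDRG1. The sign of CA9 was reversed with unscaled library sizes (0.07) and without vector replicate 1 (0.01) or BHLHE22 replicate 2 (0.06), and that of NDRG1 with unscaled library sizes (0.12) and without vector replicate 2 (0.00) or BHLHE22 replicate 3 (0.15). An adjusted p under 0.01 left 2480 genes higher and 2482 lower of 3996 and 3880. The number of all genes called higher was 5128 with unscaled library sizes, or 64.0% of the calls against 50.7%. The replicate numbers gave no sign of pairing: deviations of same-numbered libraries correlated at -0.0267 to 0.0105. Such correlations cannot show whether same-numbered libraries were prepared together. The 3 ratios kept their direction, and leaving out each library gave -1.64 to -1.27 for HIF1A to EPAS1, 0.88 to 1.21 for EGLN1 to EGLN3 and 0.30 to 0.89 for CA12 to CA9. Permuting within replicate numbers (replicate block) could not give a p below 0.25. Merged exon lengths and the addition of BNIP3P1 reads were chosen after seeing the data and changed no call. Where calls moved, the cause was not tested. CA9 and EGLN3 had at most 76 reads in any library, which limits the precision of their values.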
